A study of Mus musculus with 23 samples.

Results

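9 of the 32285 genes in the expression matrices are described here, Tmie, Eng, Plekho1, Itm2a, Sox4, Cnn3, Gsn, Spsb1 and Gpr65. They were named because their summed counts had been seen to be lower in Y665F T cells, so their T cell levels in Y665F against wild-type (WT) libraries are given as a description and without a test. All 9 were found by symbol. Droplet single-cell RNA sequencing was done on C57BL/6 mice (C57BL/6N in the methods) of 2 months that carried WT Stat5b or a knock-in of Y665F or Y665H, changes of the same tyrosine in STAT5B, the transcription factor that interleukin-2 and interleukin-7 receptors activate in T cells. Y665F was made with Cas9 and a donor oligonucleotide, Y665H by base editing, and both are present in every cell of the mouse rather than in T cells alone. Lymph node (LN) gave 2 WT, 3 heterozygous (het) and 2 homozygous (homo) Y665F libraries, spleen 1 library each of WT, Y665H and Y665F CD45+ cells pooled over mice, and bone marrow (BM) 2 of each. The labels give the zygosity for LN alone, and they do not say whether the LN and BM libraries are from separate mice. A figure legend of the study names lymph nodes for a pool of 3 mice per group, under a title that names spleen. A p-value between genotypes therefore measures the spread between libraries, which may be in part technical. Between gates, with library as a block, it measures the spread of the gate difference over libraries.

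T cells were picked by their own markers from the raw counts of unique molecular identifiers (UMIs), each of which stands for 1 captured RNA molecule. CD8 cells had a UMI of Cd8a or Cd8b1 and none of Cd4, CD4 cells the reverse and none of Foxp3, and both were split by Ccl5, a chemokine whose transcript is kept by memory and effector T cells and is low in naive cells. The summed level of 8 T cell genes was between 3816 and 4968 UMIs per 1000000 UMIs of the gate (CPM) in CD8 Ccl5-negative cells of LN and between 160 and 296 CPM in cells picked as B cells. All of the 8 but Cd2 and Lck were also used to pick the T cells, so the gates themselves set much of this contrast. The CD8 Ccl5-negative gate held between 732 and 2256 cells per LN library, the CD8 Ccl5-positive gate between 91 and 807 and the CD4 Ccl5-negative gate between 121 and 871. The CD4 Ccl5-positive gate held between 2 and 6 LN cells and was not analysed in LN. Median UMIs per kept cell were between 410 and 3119 in LN and between 5121.5 and 6707.5 in spleen, and het replicate 3 and homo replicate 1 were the shallowest at 410 and 436. No pair of LN or spleen libraries shared more than 79 barcodes, or 1.56% of the smaller library.

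A T cell leaves the thymus as a naive cell that circulates through lymph nodes and spleen and, after meeting antigen or a homeostatic cytokine, can become an effector or memory cell. The 9 genes belong to no single pathway. Eng (endoglin, a coreceptor for transforming growth factor beta and bone morphogenetic proteins), Gpr65 (a G protein-coupled receptor that senses protons), Itm2a (a type II membrane protein that rises during positive selection of thymocytes) and Tmie (a membrane protein known from the mechanotransduction channel of inner ear hair cells) act at membranes. Cnn3 (calponin 3) and Gsn (gelsolin, which severs and caps filaments) bind actin, and Plekho1 is a pleckstrin homology domain protein that binds casein kinase 2. Sox4 is an HMG-box transcription factor of lymphocyte development and Spsb1 a SOCS-box adaptor of a ubiquitin ligase.

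Positions are those of GENCODE vM21 on GRCm38. Tmie (ENSMUSG00000049555) is at chr9:110865711-110880113 on the minus strand, Eng (ENSMUSG00000026814) at chr2:32646595-32682669 on the plus strand, and Gsn (ENSMUSG00000026879) at chr2:35256380-35307892 on the plus strand. Plekho1 (ENSMUSG00000015745) is at chr3:95988429-95996001 on the minus strand and Cnn3 (ENSMUSG00000053931) at chr3:121426497-121458207 on the plus strand. Itm2a (ENSMUSG00000031239) is at chrX:107397099-107403376, Sox4 (ENSMUSG00000076431) at chr13:28948919-28953713 and Spsb1 (ENSMUSG00000039911) at chr4:149896283-149955043, all on the minus strand, and Gpr65 (ENSMUSG00000021886) is at chr12:98268635-98276644 on the plus strand. Exons of Als2cl overlap those of Tmie and exons of Fpgs those of Eng, on the opposite strand in both, and unnamed gene models overlap exons of Sox4, Cnn3, Spsb1 and Gpr65 on the opposite strand. Cell Ranger, the pipeline that made the counts, assigns a read to a gene only in the orientation of that gene, so these opposite pairs are counted apart.

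The 250 bases upstream of the RefSeq transcription start are shown for Tmie, whose LN genotype groups did not overlap in CD8 Ccl5-negative cells, and for Eng and Gpr65, of which Eng differed between Ccl5-positive and Ccl5-negative CD8 cells and Gpr65 did not pass that test. Capitals mark GGGCGG, the box read by SP and KLF factors, in Tmie, and CTTTGT, the core read by TCF, LEF and SOX factors such as SOX4, in Eng and Gpr65, each on either strand (RefSeq, GRCm38.p6).
Tmie, chr9:110880074-110880323, minus strand: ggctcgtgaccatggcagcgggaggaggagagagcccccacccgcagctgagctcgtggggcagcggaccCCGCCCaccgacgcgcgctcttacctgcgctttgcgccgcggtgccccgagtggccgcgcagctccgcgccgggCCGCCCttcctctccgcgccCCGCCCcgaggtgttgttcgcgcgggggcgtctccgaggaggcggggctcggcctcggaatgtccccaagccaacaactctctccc
Eng, chr2:32646345-32646594, plus strand: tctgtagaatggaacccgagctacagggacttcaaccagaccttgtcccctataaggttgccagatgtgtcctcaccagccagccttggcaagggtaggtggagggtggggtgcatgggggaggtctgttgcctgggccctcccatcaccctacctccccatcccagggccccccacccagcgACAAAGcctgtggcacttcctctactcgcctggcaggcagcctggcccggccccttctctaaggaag
Gpr65, chr12:98268385-98268634, plus strand: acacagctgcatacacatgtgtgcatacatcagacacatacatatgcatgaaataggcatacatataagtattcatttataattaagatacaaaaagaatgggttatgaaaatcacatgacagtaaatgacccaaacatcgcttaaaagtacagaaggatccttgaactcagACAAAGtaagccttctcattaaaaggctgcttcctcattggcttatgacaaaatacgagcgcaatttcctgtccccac
Tmie holds GGGCGG 3 times in a window of 74.8% G and C, whereas the window of Gpr65 has 36.8% G and C, against a median of 52.4% over 32851 RefSeq windows. All 9 genes matched the RefSeq table, with 11 windows, 3 of them of Gsn. GGGCGG was present in 8 of the 11 windows, those of 6 of the 9 genes, and in 32.7% of all windows. CTTTGT was present in 3 of the 11 windows (Eng, Plekho1 and Gpr65) and in 16.5% of all windows. CAGGTG, an E-box, was in 2 of the 11 (Gsn and Itm2a) and in 17.2%, and TGTGGT, a RUNX core, in 2 of the 11 (both of Gsn) and in 14.0%. TTCNNNGAA, the element read by STAT5 dimers, was in none of the 11 windows and in 7.02% of all, and CCGGAAG (ETS, 6.91% of all) and TGTTTAC (FOXO, 3.17% of all) were likewise in none. Such matches are letters in these windows alone and say nothing about binding.

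In WT LN cells the genes had distinct cell types. Eng was found in CD8 cells: its CPM in the 2 WT libraries was 12.4 and 13.8 in CD8 Ccl5-negative cells, and it was 0 in both in CD4 Ccl5-negative cells, where all 7 LN libraries together held 2 UMIs. The endothelial genes Cdh5, Kdr, Cd34 and Tek had 0 UMIs in CD8 Ccl5-negative cells of all 7 LN libraries, while Pecam1, which T and B cells also express, had 906 UMIs there and 669 in CD4 Ccl5-negative cells. Itm2a was at 160 and 161 CPM in CD4 Ccl5-negative cells, at 151 and 104 in CD8 Ccl5-positive cells and at 32.8 and 47.0 in CD8 Ccl5-negative cells. Sox4 and Spsb1 were also higher in CD4 than in CD8 Ccl5-negative cells of both WT libraries, Sox4 at 39.4 and 47.3 against 13.1 and 24.2 CPM and Spsb1 at 20.8 and 41.6 against 9.48 and 17.9. Gpr65 was between 32.4 and 48.9 CPM in all 3 T cell gates of the WT libraries. Plekho1, Cnn3 and Gsn were most abundant in B cells, with means of 190 ± 51.7, 182 ± 13.2 and 63.4 ± 15.5 CPM (SD, n = 2), whereas Tmie, Eng and Spsb1 averaged under 1 CPM there (0.817, 0.194 and 0.804). CPM counts molecules and not bases, so levels of 2 genes are set side by side only to order one gene's cell types.

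**Figure D1:**
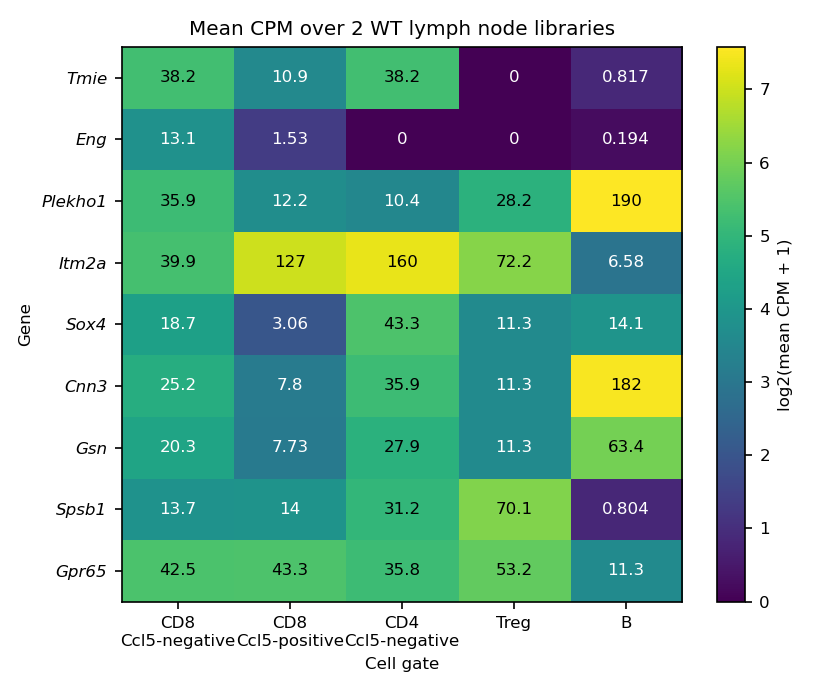
Mean CPM of the 9 genes (rows) in 5 cell gates (columns) over the 2 WT LN libraries, printed in each cell and colored as log2(CPM + 1). Eng is at 0 in CD4 Ccl5-negative cells, Itm2a reaches 160 there, and Plekho1 and Cnn3 reach 190 and 182 in B cells. The Treg column rests on 22 and 53 cells.

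Traces of B cell RNA in the T cell gates were measured with 8 B cell genes that were not used for gating. Their summed level in CD8 Ccl5-negative cells was between 0.192% and 1.73% of that in B cells of the same LN library. At that share, B cell RNA gives between 0.366 and 2.47 CPM of Plekho1 and between 0.367 and 3.48 CPM of Cnn3, where the measured levels were between 13.3 and 45.6 and between 7.39 and 28.6. In CD4 Ccl5-negative cells of het replicate 3 the share was 4.72%, and B cell RNA then gives 6.74 of the 33.4 CPM measured for Plekho1. Without het replicate 3 the share in CD8 Ccl5-negative cells was at most 0.487%. In CD8 Ccl5-positive cells the share was between 0.188% and 1.59%. B cell RNA then gives between 0.427 and 2.27 CPM of Plekho1, measured at 0 to 24.5, and between 0.325 and 3.21 CPM of Cnn3, measured at 2.47 to 12.6. In homo replicate 2 it gives 0.636 of the 1.51 CPM measured for Plekho1. Its part in the comparison of the CD8 gates was not tested.

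Ccl5-positive and Ccl5-negative CD8 cells of the same LN library were then compared. Of the 9 genes, 7 were called (against 2.9% of all 8952 genes tested), 6 lower (1.04% of all) and 1 higher (1.87%) in Ccl5-positive cells. Ccl5-positive cells were a larger share of CD8 cells in every Y665F library, so genes picked for low levels in Y665F CD8 cells favor genes that are low in Ccl5-positive cells, and nothing is read from the count. The choice bears likewise on the folds and p-values of single genes given next. They describe these cells and are no independent support. Tmie differed most, with a log2 fold change of -2.77 ± 0.263 (SE, edgeR quasi-likelihood test, adjusted p = 4.01e-17). Cnn3 (-2.36 ± 0.279), Gsn (-2.28 ± 0.341), Plekho1 (-2.12 ± 0.254) and Eng (-2.06 ± 0.336) were all lower at edgeR adjusted p of 2.59e-07 or less. Homo replicate 1 went the other way for Cnn3 (7.39 CPM in Ccl5-negative and 9.78 in Ccl5-positive cells) and Gsn (2.46 and 3.26). Ccl5-positive cells of the WT libraries together held 3, 4, 8 and 1 UMIs of Cnn3, Gsn, Plekho1 and Eng. Sox4 was lower by -1.04 ± 0.289 (edgeR adjusted p = 0.00473), close to the fold of 1 that a call needed, and DESeq2 did not call it (adjusted p = 0.0966). Its fold change was under 1 in size without WT replicate 1, WT replicate 2 or homo replicate 1, at -0.93 for the smallest of them, and also from cells with at least 500 UMIs (-0.97) and where any B or myeloid UMI excluded a cell (-0.96). With cells thinned to 500 UMIs each, Plekho1 was no longer called (-1.28, edgeR adjusted p = 0.136).

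Itm2a went the other way, higher in Ccl5-positive CD8 cells by 1.86 ± 0.103 (edgeR adjusted p = 1.52e-34). Its lowest Ccl5-positive level, 81.1 CPM in het replicate 3, was above its highest Ccl5-negative level, 66.5 CPM in homo replicate 1. Gpr65 did not pass, with a fold change of 0.04 and an interval from -0.23 to 0.31 on the log2 scale (edgeR adjusted p = 0.913). Spsb1 (-0.86 ± 0.319, edgeR adjusted p = 0.0525) just missed the threshold and passed it when any B or myeloid UMI excluded a cell (-1.03, adjusted p = 0.0196).

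Between CD8 and CD4 Ccl5-negative cells of the same libraries, 3 of the 9 genes were called (4.36% of 8822 genes), 2 higher (2.14% of all) and 1 lower (2.22%) in CD8 cells. Eng was higher in CD8 cells by 4.96 ± 0.533 and Plekho1 by 1.88 ± 0.212 on the log2 scale (edgeR adjusted p = 5.66e-19 and 3.90e-17). Itm2a was lower in CD8 cells by -1.38 ± 0.104 (edgeR adjusted p = 2.01e-38). That fold pools the genotypes and did not hold in every library. The gap in mean CPM was widest for WT (39.9 against 160 in CD4 cells). It was smaller for het (34.6 against 58.1) and smallest for homo (45.2 against 60.7). Homo replicate 1 went the other way, with 66.5 CPM in CD8 cells above its CD4 level, which rested on 3 UMIs. Het replicate 3 was nearly level. A change of this gap with genotype was not tested. Sox4 (-0.91), Spsb1 (-0.82), Gsn (-0.64) and Gpr65 (0.42) had adjusted p-values under 0.05 below the fold of 1, at most 0.0158 by edgeR. With 1 library left out Sox4 was between -1.01 and -0.83, so it passed that fold at the far end of the range. Tmie (0.40, edgeR adjusted p = 0.0512) and Cnn3 (-0.18, edgeR adjusted p = 0.488) did not pass.

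**Figure D2:**
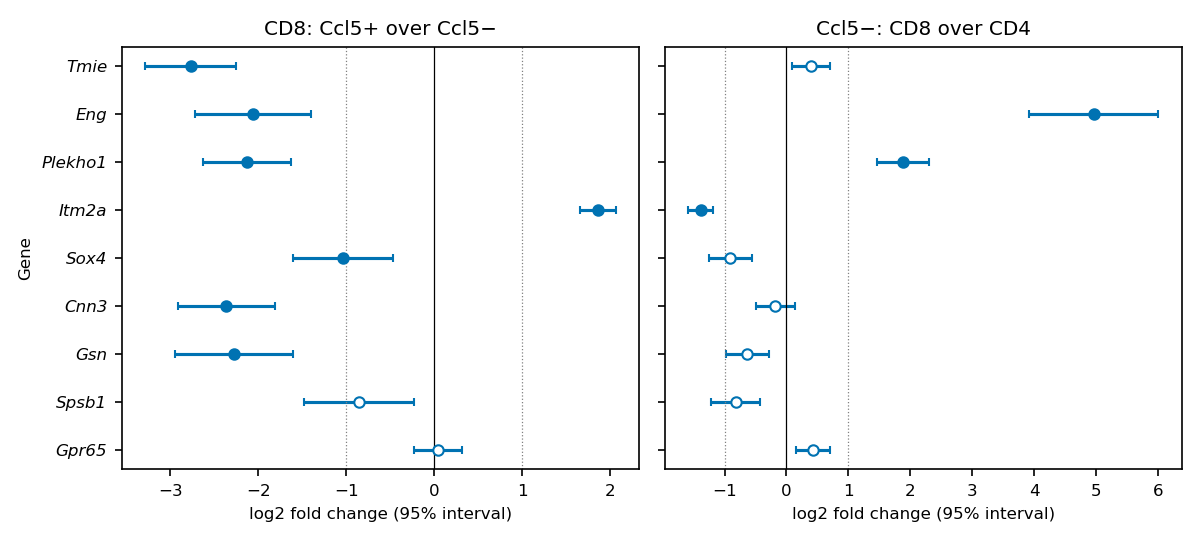
log2 fold change of each gene with its 95% interval in LN, for CD8 Ccl5-positive over Ccl5-negative cells (left) and for CD8 over CD4 Ccl5-negative cells (right), each over 7 libraries. Filled points were called, and dotted lines mark the fold of 1. Tmie lies at -2.77 and Itm2a at 1.86 on the left, and Eng at 4.96 on the right.

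The share of Ccl5-positive cells among CD8 cells was 7.78% and 7.01% in the WT LN libraries, 36.0%, 27.4% and 29.8% in het and 39.3% and 47.9% in homo. Levels in the 3 genotypes are therefore given within each gate. The same 2 WT libraries serve the het and the homo comparison, so the 2 are not independent of each other.

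In CD8 Ccl5-negative cells, every homo library was below both WT libraries for 8 of the 9 genes, the exception being Itm2a. This ordering was seen for 21.2% of the 8783 genes tested in that gate, and all 9 passed the filter on low counts. The median log2 ratio of homo to WT mean CPM was -1.31 over the 9 genes and 0.00 over all tested. Every het library was below both WT libraries for 6 of the 9 (13.8% of all), the exceptions being Eng, Itm2a and Spsb1, with a median of -0.71, and no gene of the 9 was above both (8.27% of all). In cells that also lacked a UMI of 6 effector genes, the het count was 3. Group means were in the order WT, het, homo from high to low for 7 of the 9 and for 22.5% of all genes tested. For 2 of them, Tmie and Plekho1 (1.09% of all), all WT libraries were above all het libraries and all het above all homo libraries. In the cells without effector gene UMIs this order held for none of the 9 and the order of means for 5, and 8 were below WT in both homo libraries. These values rest on 0 to 7 UMIs per gene and homo library. No share over all genes was counted in these cells, so their counts, with the het count of 3, have no background. The full order held for Plekho1 but not Tmie from cells with at least 500 UMIs, and for Tmie but not Plekho1 with cells thinned to 500 UMIs.

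Tmie was at 38.7 and 37.8 CPM in WT, 25.7, 23.1 and 15.7 in the het libraries and 12.3 and 11.5 in homo CD8 Ccl5-negative cells. The 3 groups did not overlap, and the log2 ratio of homo to WT means was -1.68. In the cells without effector gene UMIs it was at 47.5 and 57.2 CPM in WT, 44.1, 17.6 and 12.6 in the het libraries and 21.3 and 26.0 in homo, so that 2 het libraries lay below both homo libraries, on 2 to 11 UMIs per het or homo library. Plekho1 was at 26.3 and 45.6 CPM in WT, 20.7, 21.0 and 21.0 in the het libraries and 14.8 and 13.3 in homo. Its WT libraries spread more widely than those of Tmie, and its groups did not overlap either (-1.36). In the cells without effector gene UMIs, homo replicate 1 was at 28.4 CPM (4 UMIs), above the het libraries at 16.1, 21.2 and 25.2, and both homo libraries stayed below WT (41.6 and 62.5). With cells thinned to 500 UMIs, 9 of 856 cells of homo replicate 2 had a Plekho1 UMI, a larger share than the 7 of 1234, 7 of 1170 and 2 of 316 of the het libraries.

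Gpr65 was at 43.8 and 41.3 CPM in WT, 32.0, 32.9 and 13.1 in the het libraries and 14.8 and 19.5 in homo CD8 Ccl5-negative cells (log2 ratio of homo to WT means, -1.31). Both mutant groups lay below WT, and the shallow het replicate 3, with 5 UMIs of the gene, lay below both homo libraries. Eng was at 12.4 and 13.8 CPM in WT and at 7.39 and 7.08 in homo, a log2 ratio of -0.86. Its 3 het libraries, at 15.0, 7.27 and 26.2 CPM, lay on both sides of WT. The 26.2 CPM of het replicate 3 rested on 10 UMIs, and the homo values on 3 and 8 UMIs.

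The transcription factor gene Sox4 was at 13.1 and 24.2 CPM in WT, 10.4, 8.56 and 10.5 in the het libraries and 7.39 and 10.6 in homo CD8 Ccl5-negative cells. Het and homo overlapped, and both lay below WT (-1.05 for homo). Of the actin-binding genes, Cnn3 was at 21.9 and 28.6 CPM in WT, between 15.7 and 20.2 in het and at 7.39 and 15.9 in homo, and Gsn at 17.5 and 23.1, between 8.56 and 15.7, and at 2.46 and 12.4. The 2 homo values of Gsn rested on 1 and 14 UMIs. Spsb1 was at 9.48 and 17.9 CPM in WT, 9.14, 10.7 and 5.25 in the het libraries and 7.39 and 3.54 in homo, so that het overlapped WT and homo did not.

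Itm2a was at 32.8 and 47.0 CPM in WT, 24.8, 29.1 and 49.8 in the het libraries and 66.5 and 23.9 in homo CD8 Ccl5-negative cells. The 2 highest values were those of the 2 shallow libraries, homo replicate 1 and het replicate 3, and the remaining mutant libraries lay below both WT libraries. Where few molecules are captured, a Ccl5-expressing cell can lack a Ccl5 UMI: the summed level of 18 other memory and effector genes in this gate was 3334 and 2759 CPM in these 2 libraries, against 2284 and 2070 in WT and between 2288 and 2484 in the other mutant libraries. Their part in the Itm2a values was not tested. In the cells without effector gene UMIs, Itm2a was at 29.7 and 34.6 CPM in WT, at 49.6 in homo replicate 1 (7 UMIs) and at 50.5 in het replicate 3 (8 UMIs). Without these 2 libraries, the remaining homo library was below both WT libraries for all 9 genes and the 2 remaining het libraries for 7. They were left out after their values were seen, and fewer libraries make this ordering easier. No share over all genes was counted without them, so nothing is read from these counts.

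**Figure D3:**
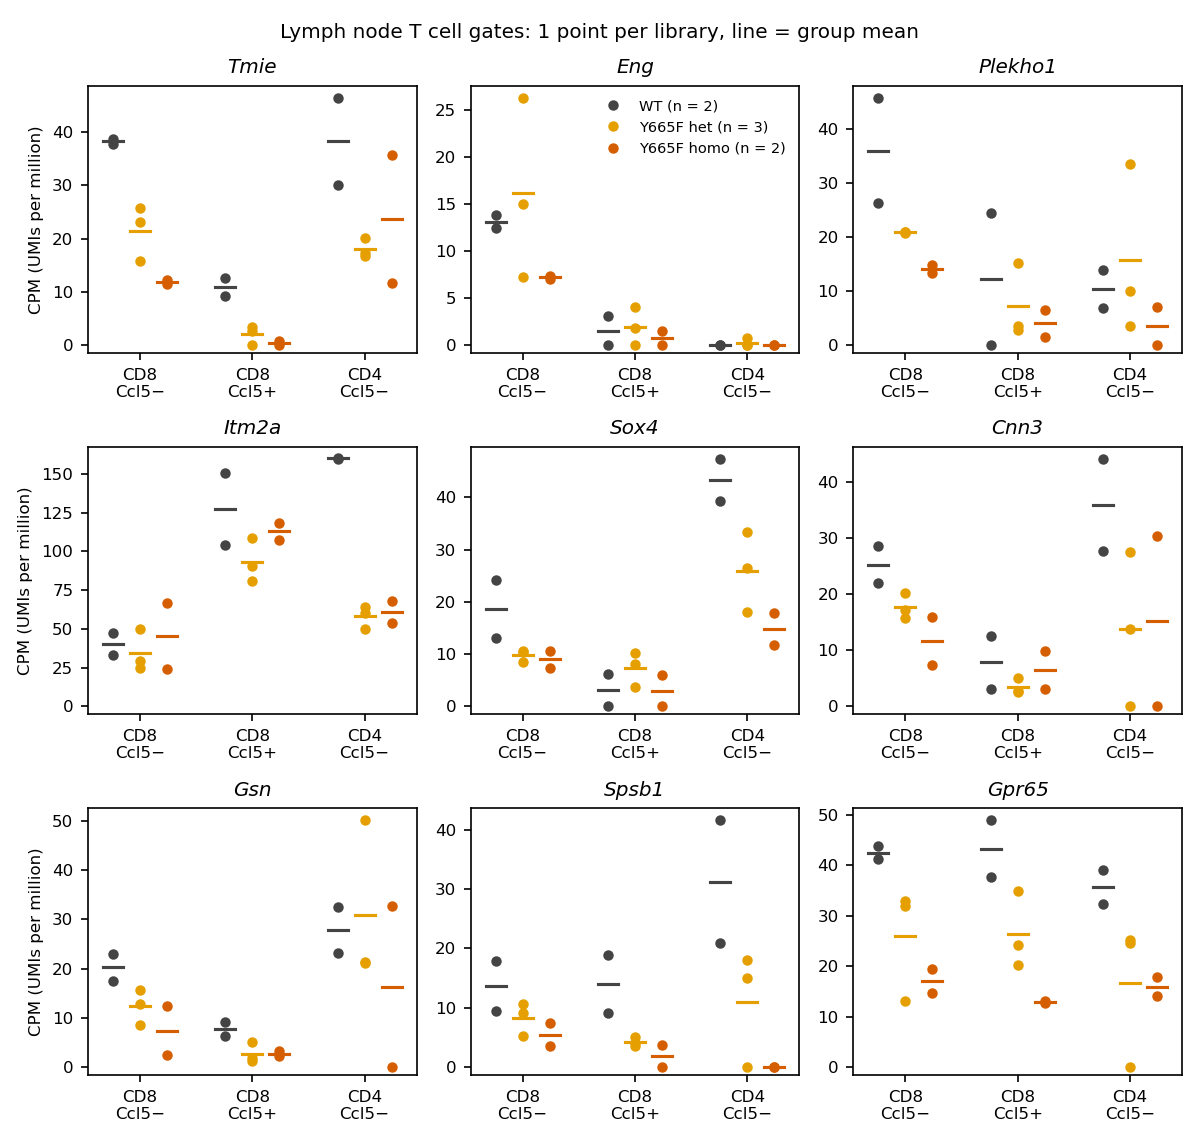
CPM of each gene (y axes) in 3 T cell gates of LN, 1 point per library and a line at the group mean, for WT, het and homo Y665F. In CD8 Ccl5-negative cells Tmie separates into 3 groups with means of 38.2, 21.5 and 11.9, and in CD4 Ccl5-negative cells Itm2a separates WT at a mean of 160 from het at 58.1 and homo at 60.7.

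In CD8 Ccl5-positive cells the WT libraries held 91 and 170 cells, and 2 of the 9 genes, Itm2a and Gpr65, passed the filter on low counts. Gpr65 was at 37.7 and 48.9 CPM in WT, 34.9, 24.2 and 20.3 in the het libraries and 13.0 and 12.8 in homo. Its 3 groups did not overlap (1 of the 9 genes, 1.18% of all), with a log2 ratio of homo to WT means of -1.74, and this order was lost where any B or myeloid UMI excluded a cell or the 5% of cells with most UMIs were left out. Means were in the order WT, het, homo for 4 of the 9 (Tmie, Plekho1, Spsb1 and Gpr65) and for 23% of all genes tested in this gate. Of these 4, only Gpr65 was among the genes tested. Itm2a was at 151 and 104 CPM in WT and at 108 and 118 in homo, within the WT range. Tmie had 2 and 3 UMIs in the WT libraries (12.6 and 9.18 CPM) and 0 and 1 UMIs in homo, although the homo gates together held more UMIs in all. Every homo library was below both WT libraries for 4 of the 9 genes (Tmie, Gsn, Spsb1 and Gpr65), an ordering seen for 19% of 4996 genes tested, and Gpr65 alone of the 4 was among the genes tested. The count was 2 without the 5% of cells with most UMIs, 1 with cells thinned to 500 UMIs and 7 without WT replicate 1, whose 0 UMIs of Eng, Plekho1 and Sox4 no library can lie below. Eng, Plekho1, Sox4 and Cnn3 overlapped WT on at most 8 UMIs per WT or homo library.

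With both CD8 gates pooled, the log2 ratio of homo to WT means was -2.49 for Tmie, -1.98 for Gsn, -1.89 for Plekho1, -1.54 for Eng and -1.48 for Sox4. Within Ccl5-negative cells alone these were -1.68, -1.45, -1.36, -0.86 and -1.05, all smaller in size. For Gpr65 the pooled and the Ccl5-negative value were closer, at -1.51 and -1.31. Itm2a was higher in the pooled CD8 cells of homo libraries, by 0.71.

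In CD4 Ccl5-negative cells Itm2a showed the clearest separation. It was at 160 and 161 CPM in WT, 60.0, 64.1 and 50.1 in the het libraries and 53.6 and 67.9 in homo, a log2 ratio of -1.46 for het and -1.40 for homo. Het and homo overlapped, and both were far below WT. Its values rested on 69 and 197 UMIs in WT and on 3 UMIs in each of the 2 shallow libraries, in which 1 UMI is worth 16.7 or 17.9 CPM in this gate.

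Sox4 was at 39.4 and 47.3 CPM in WT, 18.0, 26.4 and 33.4 in the het libraries and 17.9 and 11.7 in homo CD4 Ccl5-negative cells, below WT in all 5 mutant libraries. Gpr65 was at 32.4 and 39.1 CPM in WT, 24.7, 25.1 and 0 in the het libraries and 17.9 and 14.0 in homo, also below WT in all 5. Spsb1 was at 20.8 and 41.6 CPM in WT and 18.0, 15.1 and 0 in het, and no UMI was found in either homo library. A floor of 3 UMIs over the homo group puts its log2 ratio to WT at -2.33 or lower. Tmie was at 46.3 and 30.1 CPM in WT, between 16.7 and 20.1 in het, and at 11.7 in homo replicate 2 against 35.7 in homo replicate 1, where it rested on 2 UMIs.

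Every homo library was below both WT libraries for 4 of the 9 genes in CD4 Ccl5-negative cells (22% of 6427 genes tested) and every het library for 6 (14.8%), with none above in het (6.15% of all). The homo count was 7 without homo replicate 2, which leaves the shallow homo library alone. Of the 9, 6 passed the filter on low counts, and 3 of those 6 were below WT in homo (Itm2a, Sox4 and Gpr65). The median log2 ratio of homo to WT was -1.32 over the genes with a value and -0.04 over all genes tested. Cnn3 was at 44.0 and 27.7 CPM in WT and at 0 and 30.4 in homo, and Gsn at 23.2 and 32.6 in WT and 0 and 32.8 in homo, so that the deeper homo library lay within the WT range for Cnn3 and above it for Gsn. Means were in the order WT, het, homo for 3 of the 9 genes in this gate (22.9% of all), and all libraries for 1 of the 9, Sox4 (0.825%). That order rests on het replicate 1 at 18.0 CPM and homo replicate 1 at 17.9 on 1 UMI, and no gene of the 9 kept it under any of the 5 other gates and cell filters.

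Genes of related function did not move in the same way in every list. Of 16 genes, 14 of them family members of Itm2a, Sox4, Spsb1, Gpr65 and Plekho1 and the others Tmc6 and Tmc8 of the transmembrane channel-like family, 8 were tested in CD8 Ccl5-negative cells, with 1 below WT in both homo libraries (Spsb3, 30.6 and 32.3 against 22.2 and 23.9 CPM), 1 above (Tmc6) and a median log2 ratio of 0.01. A list of 24 other genes held actin-binding ones and the actin genes Actb and Actg1. Of the 24, 22 were tested, with 6 below, 2 above and a median of 0.01, against 21.2% below and 18.6% above among all genes. The largest ratios in size were those of Myo1f (0.56, with 24.8 and 17.6 CPM in WT and 37.0 and 25.7 in homo) and of Coro2a (0.52, with 10.9 and 25.4 in WT and 37.0 and 15.0 in homo). Tmsb10, a thymosin that binds actin monomers, was next in size and among the 6 below, at 9340 and 7316 CPM in WT and 4923 and 6987 in homo. Of 21 genes of TGF-beta and BMP signaling other than Eng, 13 were tested, with 4 below, 1 above and a median of -0.16. They include the type I receptor gene Tgfbr1, at 21.9 and 22.5 CPM in WT, 15.4, 16.3 and 7.87 in the het libraries and 12.3 and 15.0 in homo.

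Of 21 genes of immature and newly exported T cells, 12 were tested in CD8 Ccl5-negative cells, with 7 below WT in both homo libraries, 1 above (Cd5) and a median of -0.24, beside 21.2% below and 18.6% above among all genes of that gate. Ccr9, a chemokine receptor of thymocytes and recent thymic emigrants, was at 86.8 and 76.7 CPM in WT, 65.5, 65.0 and 39.3 in the het libraries and 29.6 and 45.1 in homo. Tox, a factor of T cell development, was at 67.1 and 58.0 CPM in WT and at 29.6 and 48.6 in homo. In CD4 Ccl5-negative cells 11 of the 21 were tested, with 3 below (Tox, Egr1 and Ssbp2), none above and a median of -0.14, beside 22% below and 15.3% above among all genes of that gate. The list was chosen with results of these libraries known, and its counts are a description.

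All 13 genes of the naive T cell list were tested in CD8 Ccl5-negative cells, with 4 below WT in both homo libraries (Lef1, Il7r, Actn1 and Satb1), 3 above (Klf2, S1pr1 and Igfbp4) and a median of 0.06, beside 21.2% and 18.6% of all genes. The summed level of the 13 was 4829 and 5150 CPM in WT and between 5226 and 5666 in the 5 mutant libraries. Of 19 memory and effector genes, 14 were tested in this gate, with 1 below (Id2), 7 above (18.6% of all genes) and a median of 0.45. The largest ratios were those of Gzmm (1.41, with 4.38 and 4.04 CPM in WT and 19.7 and 2.65 in homo, overlapping WT), S100a6 (16.0 and 17.9 against 39.4 and 31.0) and Cxcr3 (1.03, with 37.2 and 31.2 against 88.7 and 51.3). Ly6c2, a memory-associated surface protein gene and the next in size, was at 536 and 421 CPM in WT and at 1089 and 706 in homo. Of 15 STAT5 target genes 14 were tested, with 1 below (Ccnd2), 3 above and a median of 0.24, again beside 21.2% and 18.6% of all genes. Gzmb had the largest ratio (2.40) at low levels, 2.92 and 0.577 CPM in WT and 2.46 and 15.9 in homo. Bcl2, which promotes survival, was at 160 and 176 CPM in WT and at 379 and 224 in homo, and Pim1 at 64.2 and 73.6 against 131 and 115.

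In the same list of targets, 11 were tested in CD4 Ccl5-negative cells, with 1 below (Ccnd3), 3 above (Cish, Pim1 and Bcl2) and a median of 0.05, beside 22% and 15.3% of all genes. Cish, a feedback inhibitor induced by STAT5, was at 13.9 and 27.7 CPM in WT, 33.3, 44.0 and 50.1 in the het libraries and 53.6 and 42.1 in homo. Of the naive genes in this gate, 2 of 13 were below WT in homo (Tcf7 and Foxp1) and 4 above (Klf2, S1pr1, Dapl1 and Igfbp4), with a median of -0.12. Dapl1 was at 241 and 242 CPM in WT and between 464 and 847 in all 5 mutant libraries. Memory and effector genes gave 3 below and 3 above of 10 tested (median 0.03), and the actin and actin-binding genes 5 and 4 of 21 (0.00). The family members with Tmc6 and Tmc8 gave 1 and 2 of 8 (0.04) and the TGF-beta and BMP genes 4 and 1 of 13 (-0.06). Coro2a, a coronin, had the largest ratio of these lists (2.97), at 4.63 and 12.2 CPM in WT, 37.6, 36.5 and 33.4 in the het libraries and 71.4 and 60.8 in homo, with all 5 mutant libraries above WT. The largest among the TGF-beta and BMP genes was Tgfbr1 (-2.23, with 51.0 and 26.1 against 0 and 16.4) and that among the memory and effector genes Itgb1 (-1.26, with 90.3 and 88.8 against 0 and 74.9). In this gate 1 UMI of homo replicate 1 amounts to 17.9 CPM.

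The spleen libraries had 1 pool of mice per genotype, so values carry exact Poisson 95% intervals that cover counting error only, and the intervals of log2 ratios are of the same kind. The genes were named from T cells of LN and spleen, so the spleen values are also a description and no independent support. In Y665F CD8 Ccl5-negative cells 8 of the 9 genes were below WT in value, as were 67.1% of 9517 genes with at least 30 UMIs, and 5 were more than 2-fold below (6.28% of all). In CD8 Ccl5-positive cells 8 were below (69.7% of 9607) and 7 more than 2-fold (3.1%). The share covers only genes with at least 30 UMIs over the libraries. Of the 7, Eng (23, 5 and 1 UMIs in WT, Y665H and Y665F) and Spsb1 (14, 4 and 3) had fewer. In CD4 Ccl5-negative cells 7 were below (65.3% of 9739) and 3 more than 2-fold (4.28%), and 1 of the 7, Eng, had 4 UMIs in WT and 0 in Y665F, too few for a ratio or for the genes of that share. Y665H was below WT for 4, 3 and 5 of the 9 in the 3 gates, beside 52.3%, 51.5% and 47.3% of all genes. Y665H was more than 2-fold below WT for 0, 1 and 0 of the 9 (2.23%, 5.64% and 1.07% of all), the 1 being Cnn3 on 1 UMI.

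State markers also differed between the spleen libraries in these gates, and their part in these values was not tested. In the order WT, Y665H, Y665F, the summed level of 18 memory and effector genes was 1505, 1410 and 1566 CPM in CD8 Ccl5-negative cells, 3601, 3473 and 4455 in CD8 Ccl5-positive cells and 712, 855 and 1127 in CD4 Ccl5-negative cells. That of 13 naive genes was 6291, 6065 and 5537, then 5312, 5130 and 4410, then 6694, 6134 and 5708, lowest in Y665F in every gate. A Ccl5 UMI was found in 37.8%, 29.3% and 75.4% of spleen CD8 cells and in 12.9%, 8.2% and 15.5% of spleen B cells, at median depths of 6189.5 to 7393 and 3411 to 3827.5 UMIs, and the B cell share is a background that a gate set at 1 UMI takes in. In LN the share was at most 0.495% in B cells and 7.01% to 47.9% in CD8 cells. Spleen CD4 cells, with 19.6%, 13.5% and 23.7%, were near the B cell share and are not described as Ccl5-positive. The same background can be a larger part of the spleen CD8 Ccl5-positive gate in WT and Y665H than in Y665F. That gate may thus hold unlike cells in the 3 libraries, and the part of this in its ratios was not tested.

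In CD8 Ccl5-negative cells of the spleen, Tmie was at 29.6 CPM in the WT pool, with an interval from 25.6 to 34.1. It was at 40.5 CPM (31.6 to 51.2) with Y665H and at 12.1 CPM (6.59 to 20.2) with Y665F. In CD8 Ccl5-positive cells it was at 13.0, 21.1 and 1.83 CPM, and in CD4 Ccl5-negative cells at 27.5, 39.2 and 5.56. In all 3 gates Y665F was below the WT interval, and Y665H was above WT in value. The Y665F log2 ratios to WT were -1.30, -2.83 and -2.30, and those of Y665H 0.45, 0.70 and 0.51, with an interval of the Y665H ratio that included 0 in CD8 Ccl5-positive cells.

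Itm2a was at 20.7 CPM in WT, 15.1 in Y665H and 6.03 in Y665F CD8 Ccl5-negative cells, and at 59.1, 49.0 and 21.6 in CD4 Ccl5-negative cells. Both Y665F values lay below the WT interval, with log2 ratios of -1.78 and -1.45. In CD8 Ccl5-positive cells its Y665F ratio was smaller, -0.59 (interval -0.92 to -0.26). Eng was at 10.7, 9.85 and 2.58 CPM in CD8 Ccl5-negative cells and at 4.97, 6.21 and 0.261 in CD8 Ccl5-positive cells, where Y665F had 1 UMI (log2 ratio -4.25, interval -7.14 to -1.36). As in LN, Eng was nearly absent from CD4 Ccl5-negative cells, with 4, 1 and 0 UMIs.

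Plekho1 in CD8 Ccl5-positive cells was at 17.3 CPM in WT, 22.3 in Y665H and 5.74 in Y665F. The same gene in CD4 Ccl5-negative cells was at 10.9, 20.3 and 11.7, with Y665H above WT and Y665F close to it. Sox4 was below WT in Y665F in the 3 gates, with log2 ratios of -1.08, -1.73 and -1.43, and its Y665H intervals all included 0. Gpr65 was at 46.5, 48.7 and 39.6 CPM in CD8 Ccl5-negative cells, at 43.6, 64.5 and 46.7 in CD8 Ccl5-positive cells and at 36.1, 35.9 and 44.5 in CD4 Ccl5-negative cells, and every Y665F interval of its ratio to WT included 0. Its Y665H ratio in CD8 Ccl5-positive cells was 0.57, with a lower interval bound of 0.13. Spsb1 was at 4.27, 7.53 and 7.75 CPM in CD8 Ccl5-negative cells, higher in value in Y665F, and at 3.02, 4.96 and 0.782 in CD8 Ccl5-positive cells, lower in Y665F on 3 UMIs.

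**Figure D4:**
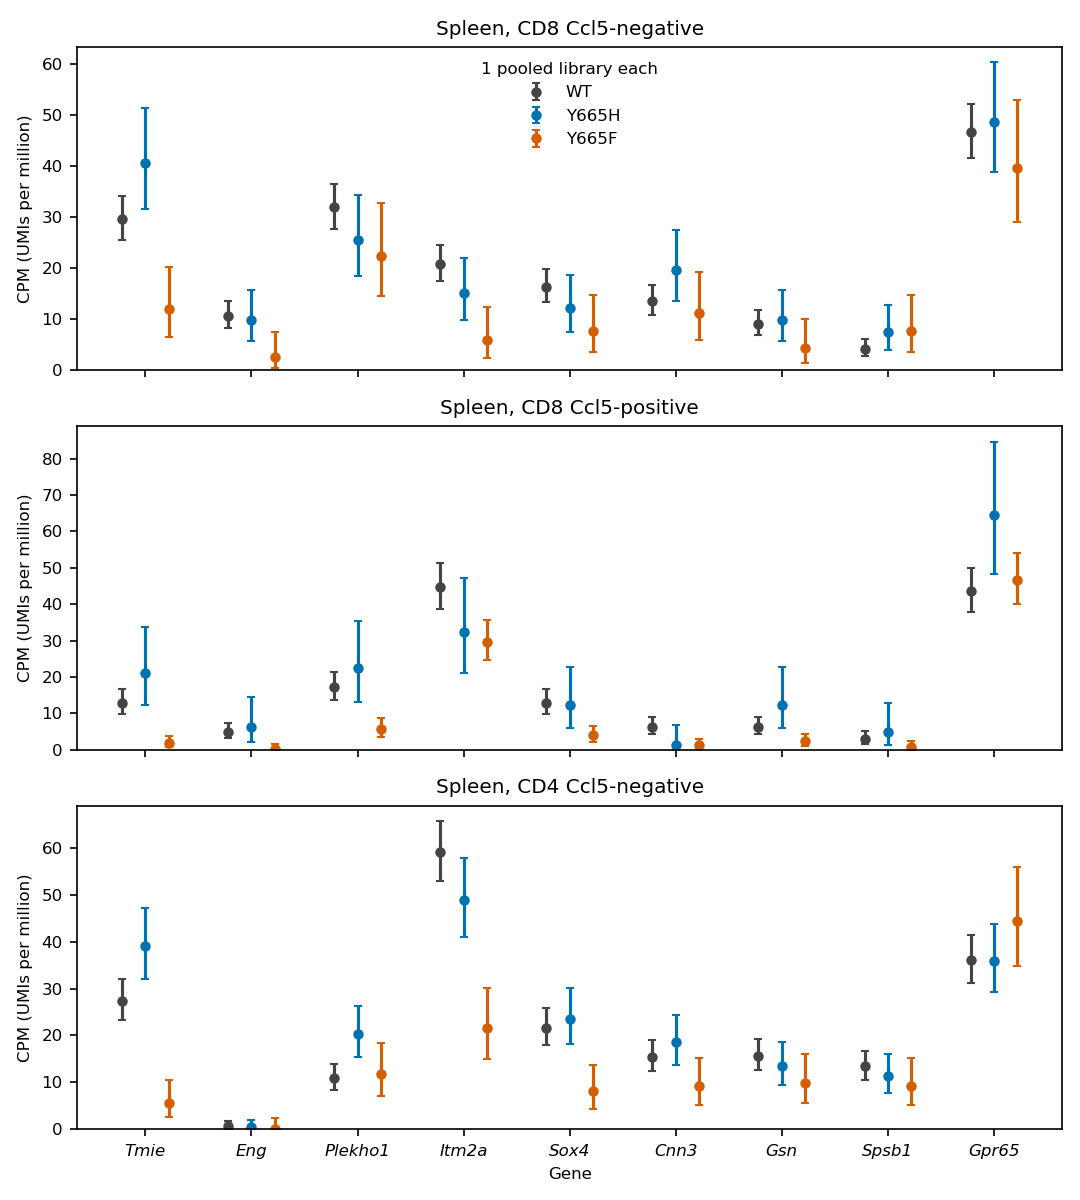
CPM of the 9 genes (x axis) in 3 T cell gates of the spleen with exact Poisson 95% intervals, 1 pooled library for each of WT, Y665H and Y665F. Tmie in Y665F lies at 12.1, 1.83 and 5.56 CPM from top to bottom, below the intervals of WT and Y665H, and Gpr65 in Y665F lies within 39.6 to 46.7.

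Neutrophil RNA differed between the spleen libraries: the summed level of 6 neutrophil genes in CD8 Ccl5-negative cells was 17.5 CPM in WT, 157 in Y665H and 181 in Y665F. Cells with 2 or more myeloid UMIs had been left out, which kept 986 of 1043 WT, 294 of 807 Y665H and 172 of 420 Y665F CD8 Ccl5-negative cells that a gate without S100a8 and S100a9 holds. In that wider gate Tmie was at 29.5, 37.6 and 10.7 CPM, Itm2a at 20.3, 21.4 and 8.18 and Eng at 10.2, 10.7 and 3.15, in the order WT, Y665H, Y665F. When CD8 Ccl5-negative cells also had to lack 6 effector genes, 5 in place of 8 of the 9 genes were below WT in Y665F. Spleen and LN levels are not compared, because the labels and the methods name kits for different transcript ends.

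Cells that had no part in the choice of the genes were then examined. In B cells of LN, 6 of the 9 genes could be tested and none was called (1 gene, or 0.011% of 9068, was called in all). Cnn3 was at 191 and 172 CPM in WT and at 237 and 172 in homo B cells (log2 fold change 0.13, interval -0.21 to 0.47, edgeR adjusted p = 0.934), Plekho1 at 154 and 227 against 204 and 159 (-0.10, interval -0.51 to 0.32), and Gsn had a fold change of -0.10 (interval -0.59 to 0.40). The other 3 had wider intervals and went both ways, with Gpr65 at -0.46 (interval -1.58 to 0.66), Sox4 at 0.37 (-0.45 to 1.19) and Itm2a at 0.64 (-0.48 to 1.77). The homo to WT ratios of Cnn3, Plekho1 and Gsn in CD8 Ccl5-negative cells were -1.11, -1.36 and -1.45, and the difference between the cell types was not tested. On simulated counts this B cell test gave an edgeR adjusted p under 0.05 for 33% of 2-fold and 88% of 4-fold changes. A call also needs a log2 fold change over 1, which that recovery did not require. In Foxp3-positive CD4 cells, regulatory T cells, between 2 and 81 cells per LN library left 611 genes to test, none of them among the 9. No gene (0%) was called in homo or het there, with 39 and 31 genes at an unadjusted p under 0.05.

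In BM, where almost no T cell passed the gates, all kept cells were summed per library, so changes in cell makeup and in RNA per cell cannot be told apart. Of the 9 genes, 8 (not Spsb1) were tested, and 2 of the 8 were called in Y665F against WT, 1 higher and 1 lower, beside 16.8% of 13923 genes (8.1% higher and 8.66% lower). Sox4 was higher, at 77.6 and 78.5 CPM in WT, 45.1 and 64.9 in Y665H and 172 and 242 in Y665F (log2 fold change 1.22 ± 0.257, edgeR adjusted p = 0.003). The call was lost without Y665F replicate 2, when the change was 0.97, and with cells thinned to 500 UMIs (0.96, edgeR adjusted p = 0.105). Cnn3 was lower, at 38.6 and 47.6 CPM in WT, 36.4 and 30.4 in Y665H and 13.1 and 19.2 in Y665F (-1.62 ± 0.246, edgeR adjusted p = 0.000423).

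Itm2a (0.91 ± 0.254) and Gpr65 (0.87 ± 0.217) had edgeR adjusted p-values of 0.0146 and 0.00787 in BM but stayed under the fold of 1, and both were higher in Y665F. Itm2a passed that fold and was called without WT replicate 2 (1.24, edgeR adjusted p = 0.0128) or without Y665F replicate 2 (1.02, 0.0257), and it had an edgeR adjusted p of 0.089 without WT replicate 1 (0.63) and 0.0995 without Y665F replicate 1 (0.73). Of the 4 genes that were higher in both Y665F BM libraries and had been below WT in homo T cells, Plekho1, Sox4 and Gpr65 were so against CD8 Ccl5-negative cells (9.78% of 8646 genes), Gpr65 against CD8 Ccl5-positive cells (8.31% of 4948) and Itm2a, Sox4 and Gpr65 against CD4 Ccl5-negative cells (9.08% of 6369). The genes were picked for low levels in Y665F T cells, so their choice set part of this order and nothing is read from the shares. Itm2a was at 6.08 and 7.39 CPM in WT and 15.6 and 13.4 in Y665F, and Gpr65 at 11.5 and 8.55 against 20.4 and 20.4. Plekho1 (0.57, edgeR adjusted p = 0.0592), Eng (-0.18), Gsn (-0.20) and Tmie (-0.25) did not pass, and Tmie was under 1 CPM in all 6 BM libraries. In Y665H BM none of the 8 was called, nor was any gene (0% of 13923 by edgeR, 723 at an unadjusted p under 0.05, and 0 by DESeq2). With 1 library left out there were 2 to 29 calls, 18 with the replicate number as a block and 47 without the low-count filter. The Y665H fold changes of the 8 lay between -0.26 (Eng) and 0.58 (Gpr65).

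**Figure D5:**
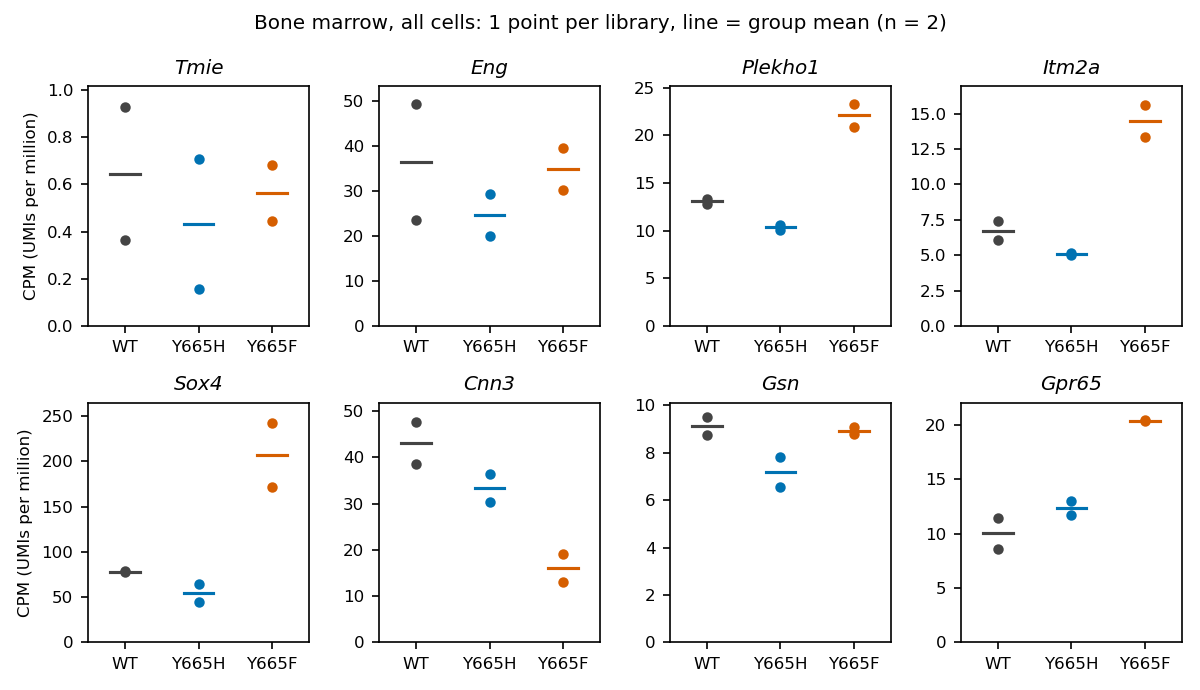
CPM of the 8 tested genes in all kept BM cells (y axes), 1 point per library and a line at the group mean, for WT, Y665H and Y665F with 2 libraries each. Sox4 in Y665F has a mean of 207 against 78.0 in WT, and Cnn3 a mean of 16.2 against 43.1.

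Patterns over cell types were compared over 35 profiles, the 7 LN libraries in 5 gates, which share libraries and depth. The Treg profiles of homo replicate 1 and het replicate 3 rest on 2 and 6 cells, with 769 and 3036 UMIs in all. Most genes are at 0 there and 1 UMI weighs heavily, so these profiles can bear on the means and correlations. Among 6247 other genes with a mean of at least 20 CPM, those most like Tmie were Tdrp (Pearson r = 0.81) and Vipr1 (r = 0.80), a receptor gene for vasoactive intestinal peptide. Those most like Eng were Cd8a (r = 0.76) and Cd8b1 (r = 0.75), which were also used for gating. Itm2a was most like Gramd1b and Hsd11b1 (both r = 0.93), and Gpr65 most like Fam49a (r = 0.92) and Snhg6 (r = 0.91). Plekho1 was most like 5031439G07Rik and Stx7 (both r = 0.86), Cnn3 most like Pou2af1 (r = 0.88) and Plaur (r = 0.87) and Gsn most like Cpm (r = 0.86) and Ankrd37 (r = 0.85), and all 3 members were most abundant in B cells. Sox4 was most like Gucd1 (r = 0.79) and Slc35e2 (r = 0.78), and Spsb1 most like Iffo2 (r = 0.77) and Timp2 (r = 0.75). Among the 9 themselves the highest correlations were between Cnn3 and Gsn (r = 0.78) and Plekho1 and Cnn3 (r = 0.77), and the lowest was between Plekho1 and Spsb1 (r = -0.22).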

How the data were processed

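The deposited matrices hold raw UMI counts for each gene in each barcode. Per the file headers, the authors counted LN with Cell Ranger 5.0.0, and spleen and BM with version 6.0.0, and the methods name GRCm38 as the reference. The labels name a kit for the 3' end and the methods a kit for the 5' end, so levels were compared only within a tissue. The 7 receptor libraries were not used. The 9 genes, the gene lists and the tests were chosen with earlier results of these data known.

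Cells needed 200 detected genes and no more than 10% of UMIs from mitochondrial genes. No doublet caller was run, and leaving out the 5% of cells with the most UMIs was an alternative. T cells had 1 or more UMIs of Cd3d, Cd3e, Cd3g, Trac, Trbc1 or Trbc2, none of Trdc and fewer than 2 of B cell and myeloid markers. B cells had 2 or more UMIs of B cell markers, and none of the Cd3, Cd4, Cd8 or myeloid markers. Cells are not replicates, so counts were summed per library and gate.

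The sums went into a quasi-likelihood F test in edgeR (4.0.16, TMM scaling, filterByExpr) under R 4.3.3, with library as a block between gates and all genotypes in 1 model otherwise. A call needed a Benjamini-Hochberg adjusted p under 0.05 over all genes and a log2 fold change over 1 in size. Standard errors are the fold change over the square root of F. The spread of each gene is estimated with the help of all genes. A small p-value can thus go with a fold that failed in a library, as for Itm2a between CD8 and CD4 cells. T cell levels of Y665F against WT in LN and spleen, which chose the genes, were not tested. A planned test of the homo difference between the LN CD8 gates was left out for the same reason. Log2 ratios of these levels are of group mean CPM in LN and of the 1 library per genotype in spleen. Genes named beside the 9 were at most 4 per list, from those with the 4 largest ratios in size, besides the genes that make up small counts, which were named after their values were seen, and for each of the 9 the 2 most like it by Pearson r of log2(CPM + 1). The fits were tested on simulated data. Total counts per library were between 2621583 and 16101373 in LN, 36889328 and 47206322 in spleen and 16399123 and 55768078 in BM. Alternatives were DESeq2 1.42.0, its size factors, no low-count filter, no minimum fold, other gates and cell filters, 500 UMIs per cell and each library left out.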

Additional observations from a re-analysis of the deposited data

Results flagged for a closer look

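For 4 genes every homo LN library was below both WT libraries in a T cell gate and every Y665F BM library above both, an order seen for 9.78%, 8.31% and 9.08% of all genes in CD8 Ccl5-negative, CD8 Ccl5-positive and CD4 Ccl5-negative cells. The T cell part of this order was set by the choice of the genes, so the shares over all genes are no like background and nothing is read from them. In BM, Sox4 was called, Itm2a and Gpr65 were not called at an edgeR log2 fold change under 1 (0.91 and 0.87), and Plekho1 did not pass (edgeR adjusted p = 0.0592). The ratios given below are of mean CPM without TMM scaling and differ from the edgeR values. The difference between the tissues was not tested, the BM labels give no zygosity, and BM sums all cells. For Plekho1 the log2 ratio of mean CPM was -1.36 in CD8 Ccl5-negative cells and 0.76 in BM. For Itm2a it was -1.40 in CD4 Ccl5-negative cells and 1.11 in BM. For Sox4 it was -1.05 in CD8 and -1.55 in CD4 Ccl5-negative cells, and 1.41 in BM. For Gpr65 it was -1.31 in CD8 Ccl5-negative, -1.74 in CD8 Ccl5-positive and -1.17 in CD4 Ccl5-negative cells, and 1.03 in BM.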

How the results depend on the processing

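Of 208 alternative values of counts, 150 stayed within 1.5 times the reported count and 58 moved. Of 600 alternative values of single genes, 549 kept direction and call, 9 lost and 11 gained a call and 31 reversed, none of the 31 for a gene that had been called. The cause was not tested.

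Without a minimum fold, calls numbered 1365 between Ccl5-positive and Ccl5-negative CD8 cells, 1947 between CD8 and CD4 cells and 4358 in Y665F BM. With cells thinned to 500 UMIs they were 103, 172 and 309, and 8 in B cells, and Sox4 was no longer called in Y665F BM (0.96). In B cells, calls were 73 without the low-count filter, 13 from cells with at least 500 UMIs and 0 without the 5% of cells with most UMIs. In Treg cells, homo calls were 1 with DESeq2 size factors, 1 where any B or myeloid UMI excluded a cell and 2 without the top 5%, and het calls were 1 each without the filter, from 500 UMIs and without the top 5%. Without the filter, Y665H BM had 47 calls. The count of the 9 genes below WT moved to 2 (top 5% left out) and 1 (thinned) for CD8 Ccl5-positive homo, to 3 for CD8 Ccl5-negative het and, in an alternative chosen after seeing the data, to 5 for Y665F spleen cells without effector gene UMIs.

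In alternatives chosen after seeing the data, the count of the 9 with all libraries in the order WT, het, homo moved in CD8 Ccl5-negative cells from 2 to 1 (at least 500 UMIs, Cd8b1 alone, or thinned), 0 (no effector gene UMIs), 4 (top 5% left out) and 5 (without the 2 shallow libraries), in CD8 Ccl5-positive cells from 1 to 0 (any B or myeloid UMI, top 5%) and 2 (without the shallow libraries), and in CD4 Ccl5-negative cells from 1 to 0 under each of the 5 cell filters and to 4 without the shallow libraries. The count of means in order moved to 1 in thinned CD8 Ccl5-positive cells.

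The labels link replicates of different groups by a number alone. In BM, r was between 0.052 and 0.314 for same-numbered libraries of different groups and between -0.314 and -0.052 for the others. With 2 libraries per group, each set about its group mean, the 2 ranges mirror each other by construction. Whether same-numbered BM libraries share more than the number was not tested. With the replicate number as a block, calls were 3 in B cells, 18 in Y665H BM, 2500 in Y665F BM and 0 for Treg.

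Leaving out 1 library at a time gave 208 to 295 calls between the Ccl5 gates, 299 to 471 between CD8 and CD4, 0 to 26 in B cells, 0 for Treg homo and 0 to 2 for Treg het, 1511 to 2730 in Y665F BM and 2 to 29 in Y665H BM. The genes below WT were then 8 to 9 in CD8 Ccl5-negative, 4 to 7 in CD8 Ccl5-positive and 5 to 7 in CD4 Ccl5-negative homo cells and 6 to 7 in het cells of both Ccl5-negative gates, and fewer libraries make this ordering easier.

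The sign of uncalled genes turned as follows. Gpr65 between Ccl5 gates was -0.0089 by DESeq2, -0.016 without the top 5% and -0.016 thinned, and -0.14 to 0.14 with a library left out. Tmie between CD8 and CD4 was -0.046 thinned. In B cells Cnn3 was -0.079 from 500 UMIs and -0.13 thinned, and Plekho1 0.028 thinned, and with a library left out Cnn3 was -0.023 to 0.33, Plekho1 -0.32 to 0.17, Gsn -0.36 to 0.21, Gpr65 -0.87 to 0.31 and Sox4 -0.59 to 0.60. In Y665H BM, thinned Plekho1 was 0.072 and Itm2a 0.067, and with a library left out Eng was -0.58 to 0.14, Gsn -0.20 to 0.027, Plekho1 -0.29 to 0.11, Cnn3 -0.43 to 0.22, Tmie -1.66 to 0.47, Sox4 -0.56 to 0.016 and Itm2a -0.46 to 0.17. In Y665F BM Eng was -0.51 to 0.23 and Tmie -0.72 to 0.31.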
